A study of Homo sapiens with 12 samples.

Results

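The genes of mitosis and of the kinetochore, the protein assembly that holds a chromosome to the spindle, were followed in cells that were made to express E2F1. The set comprised 50 genes, listed by name for their roles in entry into mitosis, spindle assembly, the spindle checkpoint, chromosome condensation, segregation, and cytokinesis. All 50 were found by gene symbol among the 25369 genes of the count files, and all 50 were among the 16625 genes that passed the filter on low counts. They were divided by function into 9 role groups, which hold between 3 and 11 genes each. The set, these groups, and the lists set beside it below were chosen with earlier results of these data known. The cells were U2OS, a human osteosarcoma line with the Tet-On system, in which doxycycline switches on a gene placed behind the pTRE promoter. The 4 stable lines carried the empty vector (pTRE), HA-tagged wild-type E2F1 (WT), E2F1 with 1 arginine changed to lysine at the position in the name (R109K), or E2F1 with arginines 111 and 113 changed to lysine (KK). Every line, the empty vector line included, was grown with G418 and hygromycin B and given doxycycline at 1 µg/ml for 24 hours, and poly(A) RNA was sequenced from 3 biological replicates of each. Each construct was represented by 1 stable line, so the construct and the line that carries it cannot be told apart, and whether the lines are clones or pools is not given in the sources used here.

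Mitotic genes are transcribed late in the cell cycle. Their promoters are held silent in quiescent and early G1 cells by the DREAM complex, which contains the repressor E2F4 and the MuvB core. From S phase onward, MuvB recruits B-MYB and then FOXM1 to the same promoters, and contacts DNA at the cell cycle genes homology region (CHR), commonly with the factor NF-Y bound at CCAAT boxes close by. E2F1, in contrast, is best known as an activator of genes for S phase entry and DNA replication, many of which carry an E2F site near the start of transcription.

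The start regions of 6 members are shown first because they hold the elements just described, and because they belong to genes with the largest changes (MKI67, ESPL1, SPC25, and NCAPG) or to central regulators of mitosis (PLK1 and CCNB1). Each stretch runs from position -120 to position 10 relative to the start of transcription given by RefSeq (130 bases, gene strand, 5′ to 3′). The sequences are those of RefSeq, placed in GRCh37 by exact match. Capitals mark the CHR, which was searched as TTTGAA and as TTTAAA. They also mark CCAAT, which reads ATTGG on the other strand, and the E2F core GGCGGGAA.
MKI67: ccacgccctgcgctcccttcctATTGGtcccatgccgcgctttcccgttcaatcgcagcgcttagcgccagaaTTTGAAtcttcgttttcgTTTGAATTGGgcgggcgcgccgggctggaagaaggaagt
ESPL1: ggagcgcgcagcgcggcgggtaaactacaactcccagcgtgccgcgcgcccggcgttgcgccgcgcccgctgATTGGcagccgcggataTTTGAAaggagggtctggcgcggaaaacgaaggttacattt
SPC25: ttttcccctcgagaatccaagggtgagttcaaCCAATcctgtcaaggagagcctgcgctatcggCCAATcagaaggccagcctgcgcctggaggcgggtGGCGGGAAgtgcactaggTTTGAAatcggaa
NCAPG: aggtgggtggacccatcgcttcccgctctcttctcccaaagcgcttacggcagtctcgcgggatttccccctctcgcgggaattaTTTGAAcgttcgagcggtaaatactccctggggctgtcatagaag
PLK1: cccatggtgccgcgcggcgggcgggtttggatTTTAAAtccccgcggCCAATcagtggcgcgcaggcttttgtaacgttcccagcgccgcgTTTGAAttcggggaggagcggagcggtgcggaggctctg
CCNB1: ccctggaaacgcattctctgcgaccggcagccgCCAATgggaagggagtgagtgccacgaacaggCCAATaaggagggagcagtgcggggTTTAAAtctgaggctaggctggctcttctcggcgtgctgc
These stretches lie at chr10:129924678-129924807 (minus strand), chr12:53661963-53662092 (plus), chr2:169746931-169747060 (minus), chr4:17812482-17812611 (plus), chr16:23690090-23690219 (plus), and chr5:68462857-68462986 (plus), in the order printed. Positions are those of the first base of a match. The CHR of MKI67 begins at positions -47 and -29, and the second copy shares a base with an inverted CCAAT at position -24. ESPL1 holds TTTGAA at position -31, NCAPG at -35, and PLK1 at -29, where PLK1 also has TTTAAA at position -88. CCNB1 holds TTTAAA at position -30 behind CCAAT boxes at positions -87 and -55. SPC25 has its TTTGAA at position -3 and was the gene among these 6 with an E2F core, at position -21.

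Across the set, 41 of the 50 members had a RefSeq start region, and these gave 55 windows from 250 bases before to 50 after the start, because some genes have several starts. TTTGAA was found on either strand in 32 of the 55 windows (58.2%), against 15.2% of all 35116 windows, 10.9% of the 16980 windows of genes tested, and 1.92% of the 52 windows of replication genes. With TTTAAA included, the shares were 72.7%, 24.0%, 18.0%, and 13.5%. The E2F sites searched were TTTGGCGC, TTTCCCGC, TTTGCCGC, TTTCGCGC, and the core GGCGGGAA, of which TTTCCCGC and the core can overlap. At least 1 of them was found in 9.09% of member windows, 5.58% of all windows, 7.67% of windows of genes tested, and 48.1% of the windows of replication genes. The 4 members with such a match were CDC25B, CDK1, CENPA, and SPC25. At least 2 CCAAT boxes were found in 34.5% of member windows, 10.8% of all windows, 11.3% of those of genes tested, and 32.7% of those of replication genes. CHR matches of member windows also sat near the start. Between positions -50 and 5, 20 of 55 member windows held TTTGAA on either strand (36.4%), against 2.88% of all windows. A match is a description of the letters and does not show that a factor binds there.

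**Figure D1:**
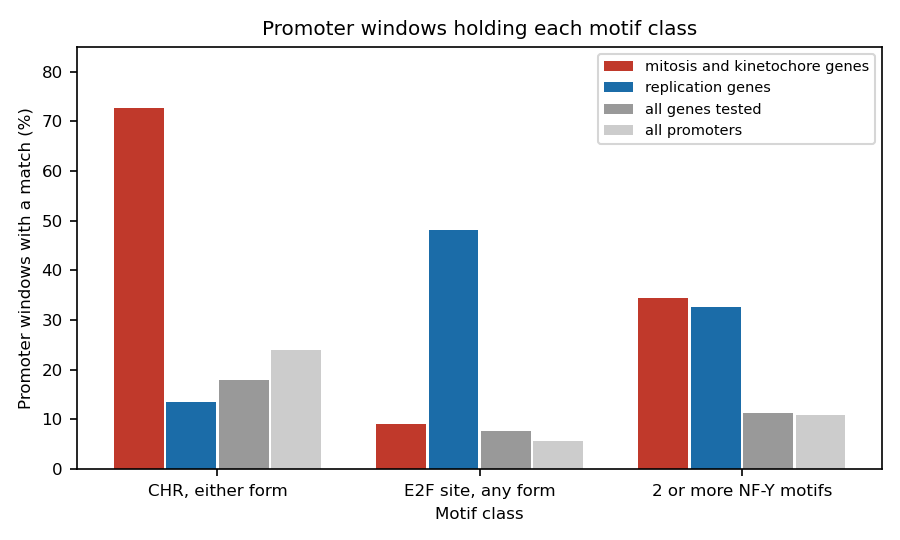
Bars give the percentage of promoter windows (250 bases before to 50 after the start, both strands) that hold the CHR, an E2F site, or 2 or more CCAAT boxes (NF-Y motifs), for the mitosis and kinetochore genes, replication genes, all genes tested, and all promoters. The CHR is found in 72.7% of member windows and 13.5% of replication gene windows, whereas E2F sites are found in 9.09% and 48.1%.

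Reads on genes numbered between 11500537 and 31040903 per sample, and the member with the median count had between 2232 and 6875 reads, so that counting error was small beside the differences between replicates. WT replicate 2 stood apart in where its reads lay. In it 58.7% of reads lay outside annotated genes, against 23.6% to 29.6% in the other 11 samples. E2F1 itself stood between 83.0 and 102 CPM (counts per 1000000 reads on genes, with library sizes scaled by TMM) in the pTRE samples and between 932 and 2315 CPM in the E2F1 lines, where reads of the construct and of the cells' own gene are counted together. Of the 6 osteosarcoma markers checked, COL1A1, SPARC, VIM, and RUNX2 were detected in every line but not at equal levels. COL1A1, encoding a chain of type I collagen, had a mean of 3557 CPM in pTRE and 567, 662, and 842 CPM in WT, KK, and R109K, and it fell in each (adjusted p = 8.57e-09, 1.84e-08, and 1.53e-07). SPARC, a matrix protein, fell from 1613 CPM to 626, 744, and 822 CPM (adjusted p = 1.15e-05, 7.49e-05, and 0.000374). RUNX2, a transcription factor of bone cells, had means of 17.0, 11.3, 10.7, and 9.08 CPM and fell in KK and R109K (adjusted p = 0.00626 and 0.00101), with adjusted p = 0.0118 in WT. VIM stood between 1305 and 1653 CPM in the line means and did not pass in any. The part of these marker differences in the members' values was not tested. The remaining markers, COL1A2 and ALPL, had line means of at most 0.290 and 1.85 CPM. Of the 3 blood and endothelial markers, the highest line mean was 0.460 CPM. Among the 4 epithelial markers, EPCAM had line means between 11.4 and 13.3 CPM, and the highest mean of the others was 1.38 CPM.

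Most mitosis and kinetochore genes were higher in each E2F1 line than in the empty vector line, by modest amounts, and 0 fell. In WT, 19 of 50 members rose (edgeR quasi-likelihood test, adjusted p below 0.01 by the Benjamini-Hochberg method over all genes tested) and 31 did not pass, whereas 14.8% of all genes tested rose and 11.4% fell. In KK, 18 members rose, against a background of 13.8% of genes that rose and 10.7% that fell. In R109K, 27 members rose, against 10.0% of genes that rose and 7.23% that fell. All 3 comparisons share the same pTRE samples. At an unadjusted p below 0.05, 26, 30, and 41 members were higher in WT, KK, and R109K and 0 were lower. Of the 16625 genes tested, 4236, 3896, and 3348 were higher and 3917, 3689, and 3074 lower at that p. DESeq2 called 22, 25, and 31 members higher and 0 lower at the adjusted threshold.

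The median log2 fold change of the 50 members was 0.28 in WT, 0.41 in KK, and 0.49 in R109K, beside 0.00, -0.01, and 0.00 over all genes tested. Single members ranged from -0.34 to 1.00 in WT, from -0.19 to 0.90 in KK, and from -0.01 to 1.06 in R109K. Most rises therefore stayed under 2-fold, the limit that the study used together with the adjusted p to call a transcript regulated. Under that rule 0 members were called in WT and in KK and 1, SPC25, in R109K. Over all genes tested, the rule called 7.89% up and 3.93% down in WT, 7.01% and 3.90% in KK, and 4.64% and 2.56% in R109K. MKI67 in WT reached 1.995-fold and lay just under the limit. It passed with DESeq2, with RLE normalization, with a minimum of 10 counts in every sample, with only the 6 samples compared, without pTRE replicate 2, and without WT replicate 1. ESPL1 passed in WT without pTRE replicate 3 and without WT replicate 3, so that 1 member passed in each of these alternatives.

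Replicates of the E2F1 lines and of pTRE were often fully separated. Every WT sample was above every pTRE sample for 24 members, against 25.2% of genes tested. Every KK sample was above every pTRE sample for 28 members (24.9% of genes tested), and every R109K sample for 39 (24.3% of genes tested). Of the reads on genes, the members together took 1.05% ± 0.06 (SD, n = 3, as for the following lines) in pTRE. The WT line had 1.43% ± 0.02, KK had 1.42% ± 0.08, and R109K had 1.55% ± 0.10. By sample, the median of the members' log2 differences from the pTRE mean lay between -0.05 and 0.07 in pTRE, between 0.24 and 0.46 in WT, between 0.33 and 0.46 in KK, and between 0.50 and 0.57 in R109K. WT replicate 2 had the lowest of the WT medians, and all 3 R109K samples lay above all WT and KK samples. In RNA from whole cultures, more cells in G2 and mitosis and more RNA of these genes per cell cannot be told apart.

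**Figure D2:**
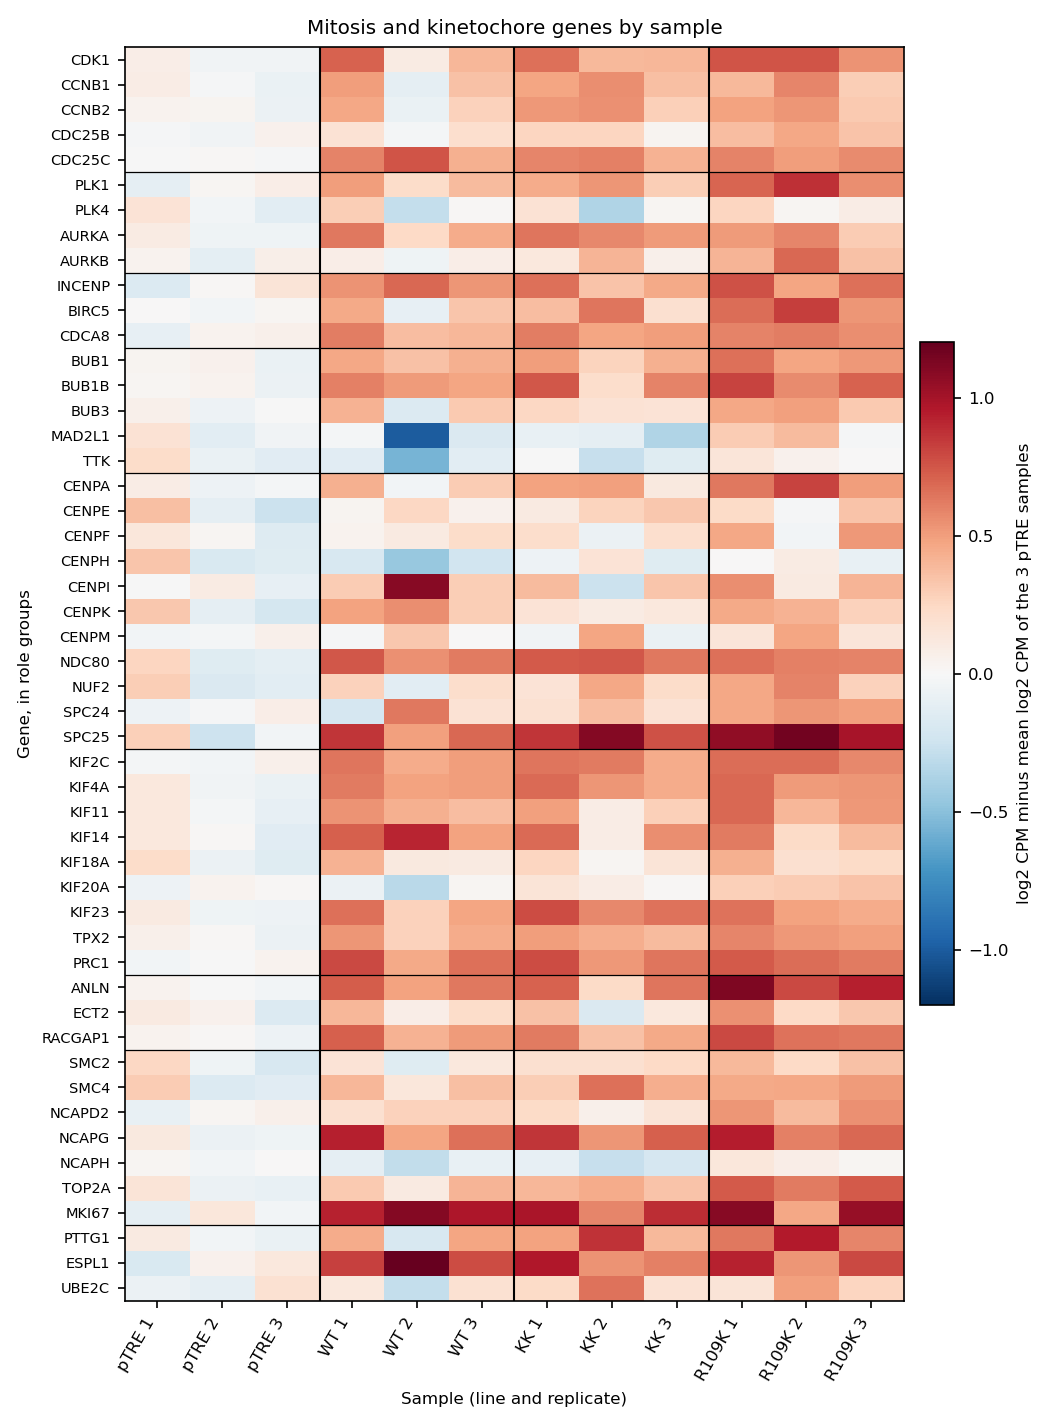
Each row is 1 of the 50 genes and each column 1 of the 12 samples, and colour gives the log2 CPM minus the mean log2 CPM of the 3 pTRE samples, with lines between role groups and between cell lines. Most rows are red in the WT, KK, and R109K columns, with MKI67, ESPL1, and SPC25 among the deepest, while MAD2L1 and NCAPH are blue in the WT and KK columns.

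The number of members that rose depended on single samples, and with each of the 6 samples of a comparison left out in turn 0 members fell in any line. In WT the count was 8 without pTRE replicate 2, 10 without pTRE replicate 3, and 10 without WT replicate 1, and it was 21 without WT replicate 2. In KK it was 9 without KK replicate 1, 11 without pTRE replicate 2, and 12 without each of pTRE replicate 1, pTRE replicate 3, and KK replicate 3. In R109K it was 12 without R109K replicate 1, 16 without pTRE replicate 2, and 17 without pTRE replicate 3. These fits have 1 sample fewer to estimate a mean. Leaving out WT replicate 2 also changes the spread estimate that all lines share, and 24 members then rose in KK and 32 in R109K, with 18 and 27 of them shared with the counts on all samples. In that fit, 14.1%, 15.9%, and 11.7% of the 16823 genes tested rose in WT, KK, and R109K. The counts for the other samples left out are given without a share of all genes tested. All 19 members that rose in WT were among the 21 that rose without that replicate, and the 2 added were CDK1 and PLK1.

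Among members that did not pass in WT, several values rested on WT replicate 2. Without it, 19 of the 50 log2 fold changes in WT moved by over 1.5 times, and 0 of these 19 had passed. Values that became larger were those of CCNB1 (from 0.27 to 0.42), CCNB2 (from 0.24 to 0.37), BUB3 (from 0.21 to 0.37), BIRC5 (from 0.25 to 0.40), PTTG1 (from 0.27 to 0.45), CDC25B (from 0.12 to 0.19), and NUF2 (from 0.12 to 0.23). CENPI (from 0.60 to 0.29), SPC24 (from 0.23 to -0.0038), CENPE (from 0.09 to 0.017), and CENPM (from 0.11 to -0.0074) became smaller. The negative values of MAD2L1 (from -0.34 to -0.11), TTK (from -0.26 to -0.14), KIF20A (from -0.12 to -0.024), and NCAPH (from -0.16 to -0.10) moved toward 0. The other 4, PLK4, AURKB, SMC2, and UBE2C, lay between 0.02 and 0.04 with all samples and between 0.08 and 0.16 without the replicate.

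Rises in all 3 lines were found for 18 members, namely ANLN, AURKA, BUB1, BUB1B, CDC25C, CDCA8, ESPL1, INCENP, KIF23, KIF2C, KIF4A, MKI67, NCAPG, NDC80, PRC1, RACGAP1, SPC25, and TPX2. A further 9 passed in R109K and in no other line, 1 (KIF14) passed in WT and in no other, and 22 passed in none. These classes depended on the fit. With DESeq2, CDK1, PLK1, TOP2A, and PTTG1 of the 9 and CCNB1 of the 22 passed in KK (adjusted p from 0.00109 to 0.00607). PLK1 also passed in WT with DESeq2 (0.00758), and CDC25B of the 22 passed in R109K (0.00105). Without WT replicate 2, CDK1, PLK1, TOP2A, PTTG1, CCNB1, and CCNB2 passed in KK. R109K had the highest mean of the 4 lines for 36 members, KK for 7, WT for 6, and pTRE for 1. The lowest mean was that of pTRE for 44 members, of WT for 4, of KK for 2, and of R109K for 0. The shared calls and the order of the line means were counted over the members alone, without a share of all genes tested. Among members that rose in all 3 lines, 14 of 18 promoter windows held TTTGAA, and among those that rose in none, 10 of 25 did. TTTAAA was found in 2 of these 18 windows and 7 of these 25, and either form in 15 of 18 and 15 of 25. Windows are not genes here, because some members have no RefSeq start and others have several.

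**Figure D3:**
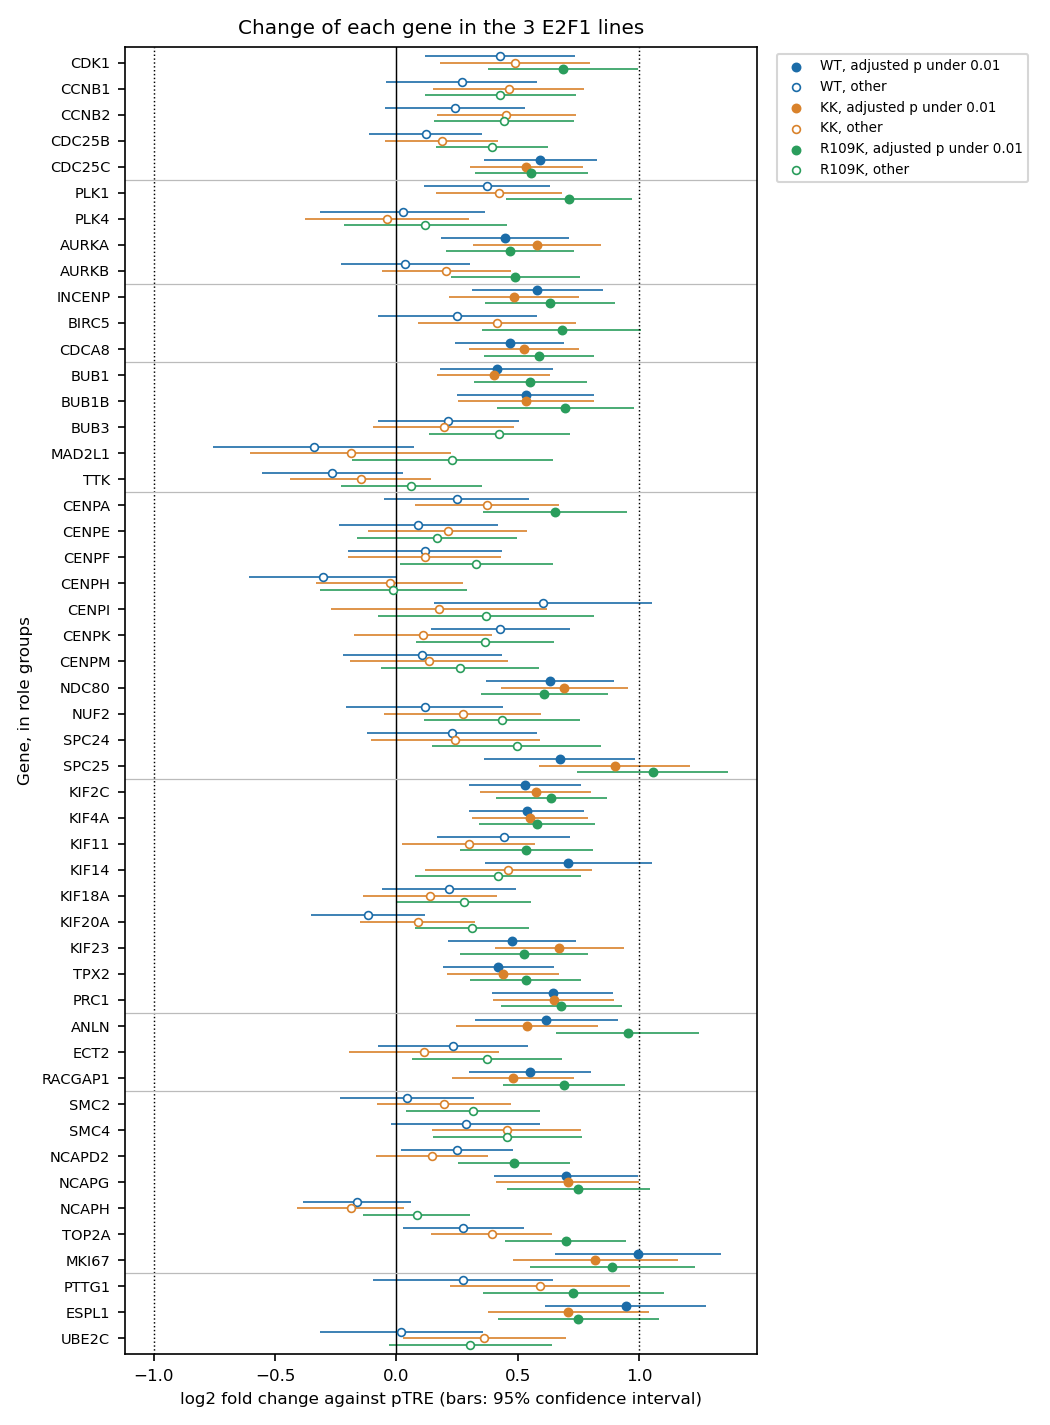
Points give the log2 fold change of each of the 50 genes against pTRE in the WT, KK, and R109K lines, bars are 95% confidence intervals, filled points have an adjusted p under 0.01, and dotted lines mark 2-fold. Nearly all points lie right of 0 and left of the 2-fold line, and SPC25 in R109K, at 1.06, is the filled point beyond it.

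MKI67, which encodes the proliferation marker Ki-67, a protein that coats mitotic chromosomes, showed the largest rise in WT. Its levels were 906, 1070, and 951 CPM in pTRE, 1850, 2084, and 1905 in WT, 1915, 1460, and 1794 in KK, and 2069, 1346, and 2008 in R109K. All 9 samples of the E2F1 lines lay above all 3 pTRE samples, and R109K replicate 2 and KK replicate 2 were the lowest of the 9. The log2 fold change was 1.00 in WT, 0.82 in KK, and 0.89 in R109K (standard error 0.16 and adjusted p = 0.000175, 0.000876, and 0.000669). ESPL1 encodes separase, the protease that opens cohesin at anaphase. It was measured at 90.9, 107, and 113 CPM in pTRE, 183, 238, and 178 in WT, 201, 150.2, and 156 in KK, and 196, 149, and 178 in R109K. Again the 3 E2F1 lines and pTRE did not overlap, and WT replicate 2 was the highest sample. Its log2 fold change was 0.94 in WT, 0.71 in KK, and 0.75 in R109K (standard error 0.16 and adjusted p = 0.000223, 0.00218, and 0.00201). The calls of ESPL1 in KK and R109K were lost without pTRE replicate 1 (adjusted p = 0.0162 and 0.0154), and also without KK replicate 1 (0.0142) and without R109K replicate 1 (0.0139).

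SPC25 encodes a subunit of the NDC80 complex, which binds microtubules at the kinetochore, and it was the member with the largest rise in KK and in R109K. Its levels were 64.6, 44.4, and 51.6 CPM in pTRE, 95.8, 74.3, and 85.5 in WT, 96.2, 114, and 89.7 in KK, and 111, 118, and 105 in R109K. The lowest sample of the E2F1 lines, WT replicate 2, lay above the highest pTRE sample, and all R109K samples lay above all WT samples. The log2 fold change was 0.67 in WT (adjusted p = 0.00198), 0.90 in KK (adjusted p = 0.000198), and 1.06 in R109K (adjusted p = 7.66e-05), with a standard error of 0.15 in each. Its call in WT was lost without pTRE replicate 2 (adjusted p = 0.0157), pTRE replicate 3 (0.0118), or WT replicate 1 (0.0138). NCAPG, a subunit of condensin I, stood at 97.7, 85.8, and 87.2 CPM in pTRE, 172, 125, and 143 in WT, 163, 129.6, and 148 in KK, and 173, 137, and 145 in R109K. Its samples in the E2F1 lines all exceeded those in pTRE, and the 3 lines overlapped one another. The log2 fold change was 0.70 in WT, 0.71 in KK, and 0.75 in R109K (standard error 0.14 and adjusted p = 0.00100, 0.000960, and 0.000845). A part of its exons (33.7%) overlaps exons of LCORL on the opposite strand. The library kit keeps strand, but whether counting used it is not given in the sources used here, so reads of this overlap may be assigned to either gene. Among the 30 members for which alternatives were computed, the calls of MKI67, NCAPG, and CDC25C held in all 3 lines under all 13 alternatives computed for each.

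**Figure D4:**
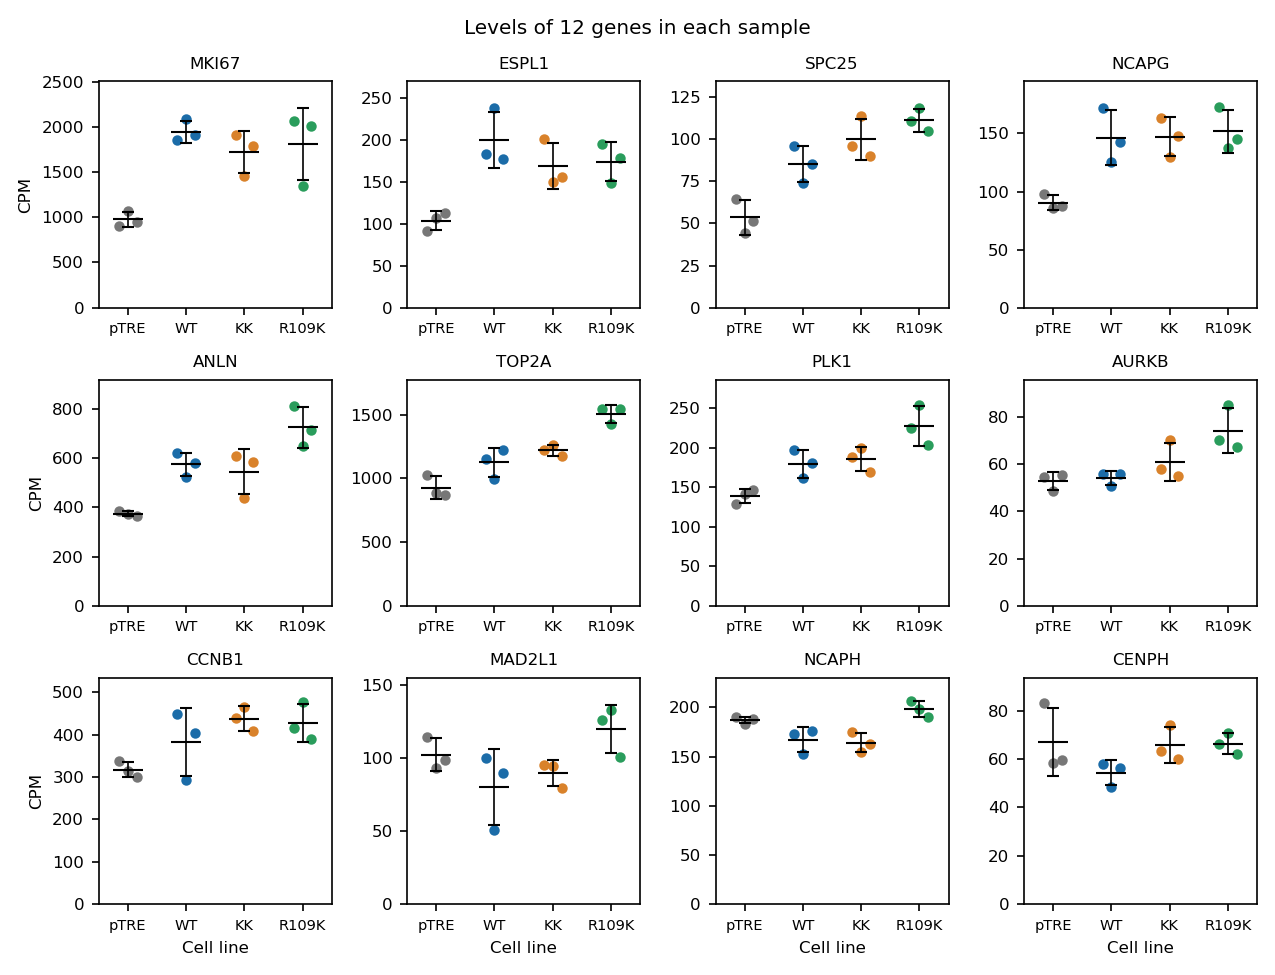
Points are the CPM of single samples for 12 genes in the pTRE, WT, KK, and R109K lines, horizontal bars are means, and error bars are SD (n = 3). MKI67, ESPL1, SPC25, NCAPG, and ANLN are above pTRE in every sample of the 3 E2F1 lines, TOP2A, PLK1, and AURKB are highest in R109K, and NCAPH is below pTRE in WT and KK.

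For the counts by role group that follow, 14.8%, 13.8%, and 10.0% of all genes tested rose in WT, KK, and R109K. Of the group of CDK1, the kinase that drives entry into mitosis, its B cyclins, and the CDC25 phosphatases that activate it, 1 of 5 members rose in WT, 1 in KK, and 2 in R109K. CDK1 was measured at 169, 155, and 155 CPM in pTRE, 261, 171, and 211 in WT, 253, 209.9, and 211 in KK, and 270.4, 269.7, and 232 in R109K. The WT samples spread widely, with replicate 2 just above the pTRE samples, and the R109K samples were all above KK replicates 2 and 3. CDK1 rose in R109K (log2 fold change 0.69, standard error 0.15, adjusted p = 0.00235), and its values were 0.43 in WT (adjusted p = 0.0294) and 0.49 in KK (adjusted p = 0.0152). Its call in R109K was lost without pTRE replicate 2 or 3 (adjusted p = 0.0149 and 0.0138) and without R109K replicate 1 or 2 (0.0151 and 0.0113), whereas it passed in WT without WT replicate 2 (0.00249). In KK, CDK1 passed with DESeq2 (adjusted p = 0.00368). CCNB1, which encodes cyclin B1, stood at 337, 315, and 301 CPM in pTRE, 449, 294, and 405 in WT, 441, 466, and 408 in KK, and 416, 476, and 390.2 in R109K. WT replicate 2 was the lowest of the 12 samples, and all KK and R109K samples were above all pTRE samples. Its log2 fold changes were 0.27, 0.46, and 0.43 in WT, KK, and R109K (adjusted p = 0.154, 0.0212, and 0.0392). In KK, CCNB1 passed with DESeq2 (adjusted p = 0.00607). CCNB2, encoding cyclin B2, had similar values of 0.24, 0.45, and 0.44, of which 0 passed. CDC25C, the phosphatase of CDK1 at mitotic entry, rose in all 3 lines, by 0.59, 0.54, and 0.56 (adjusted p = 0.000577, 0.00130, and 0.00138), from 26.5 CPM in pTRE. Its relative CDC25B did not pass in any, at 0.12, 0.19, and 0.39, the lowest value of the group in WT.

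Of the polo and aurora kinases, 1 of 4 rose in WT and in KK and 3 in R109K. PLK1, which acts in centrosome maturation, kinetochore attachment, and cytokinesis, was measured at 129, 141, and 147 CPM in pTRE, 197, 161, and 181 in WT, 189, 199.6, and 169.9 in KK, and 225, 254, and 204 in R109K. All samples of the 3 E2F1 lines exceeded those of pTRE, and the 3 R109K samples were the highest of the 12. PLK1 rose in R109K (log2 fold change 0.71, standard error 0.12, adjusted p = 0.000462), and stood at 0.37 in WT (adjusted p = 0.0242) and 0.42 in KK (adjusted p = 0.0132). Without WT replicate 2, PLK1 passed in WT (adjusted p = 0.00922). With DESeq2 it passed in WT and KK (adjusted p = 0.00758 and 0.00215). AURKB, the catalytic subunit of the chromosomal passenger complex, stood at 54.5, 48.6, and 55.6 CPM in pTRE, 55.95, 50.8, and 55.9 in WT, 57.8, 70.2, and 55.1 in KK, and 70.2, 85.3, and 67.3 in R109K. The WT samples overlapped those of pTRE, and the R109K samples were above both. AURKB rose in R109K by 0.49 (standard error 0.12, adjusted p = 0.00818), a call that was lost without any 1 of the 6 samples (adjusted p from 0.0108 to 0.0530), and its log2 fold change was 0.04 in WT and 0.21 in KK. AURKA, the kinase of spindle poles, rose in all 3 lines, by 0.45 in WT, 0.58 in KK, and 0.47 in R109K (adjusted p = 0.00944, 0.00178, and 0.00994). The call in R109K was lost without any 1 of the 6 samples, and the call in WT was lost without any except WT replicate 2. In KK it was lost without pTRE replicate 2, pTRE replicate 3, or KK replicate 1 (adjusted p = 0.0129, 0.0106, and 0.0109). PLK4, which starts centriole duplication, had log2 fold changes of 0.03, -0.04, and 0.12, with adjusted p = 0.630 or more.

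The other chromosomal passenger subunits, which place AURKB at centromeres and at the spindle midzone, numbered 3, of which 2 rose in WT, 2 in KK, and 3 in R109K. INCENP, the scaffold, rose by 0.58, 0.49, and 0.63 in WT, KK, and R109K (adjusted p = 0.00198, 0.00693, and 0.00148). Without pTRE replicate 1 its calls were lost in all 3 lines (adjusted p = 0.0142, 0.0402, and 0.0112). They were also lost without pTRE replicate 2 in WT and KK (0.0101 and 0.0269), without KK replicates 1 and 3 (0.0408 and 0.0181), and without R109K replicate 1 (0.0116). CDCA8, encoding borealin, rose by 0.47, 0.53, and 0.59 (adjusted p = 0.00272, 0.00113, and 0.000691). BIRC5, encoding survivin, rose in R109K by 0.68 (adjusted p = 0.00369), and its values were 0.25 in WT and 0.42 in KK. Its call in R109K was lost without any 1 of the 6 samples except R109K replicate 3 (adjusted p from 0.0154 to 0.0207).

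In the spindle checkpoint, which delays anaphase until every kinetochore is attached, 2 of 5 members rose in each line, and both were the same genes, BUB1 and BUB1B. BUB1, a checkpoint kinase at kinetochores, was measured at 191, 193, and 176 CPM in pTRE, 257, 238, and 250.3 in WT, 264, 225, and 251 in KK, and 295, 259, and 267 in R109K. The samples of the 3 lines all lay above pTRE. Its log2 fold change was 0.41 in WT, 0.40 in KK, and 0.55 in R109K (standard error 0.11 and adjusted p = 0.00736, 0.00925, and 0.00145). The call of BUB1 was lost in WT without any 1 of the 6 samples except WT replicate 2 (adjusted p from 0.0197 to 0.0345), in KK without any except KK replicate 2 (0.0230 to 0.0487), and in R109K without R109K replicate 1 (0.0141). BUB1B, encoding the checkpoint protein BubR1, rose by 0.53, 0.53, and 0.70 (adjusted p = 0.00487, 0.00499, and 0.00102). The R109K call of BUB1B held without each sample, while those in WT and KK were lost without each pTRE replicate, WT replicate 1, and KK replicates 1 and 3 (adjusted p from 0.0171 to 0.0348).

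MAD2L1 and TTK did not follow the group. MAD2L1 encodes MAD2, which inhibits the anaphase-promoting complex, and its levels were 115, 93.02, and 98.7 CPM in pTRE, 100.0, 50.99, and 90.02 in WT, 95.4, 94.5, and 79.3 in KK, and 126, 133, and 101 in R109K. WT replicate 2 was the lowest of the 12, and KK and WT samples overlapped pTRE. The log2 fold change of MAD2L1 was -0.34 in WT, -0.19 in KK, and 0.23 in R109K (standard error 0.19, adjusted p = 0.175, 0.492, and 0.418). Without WT replicate 2, the value in WT was -0.11 (adjusted p = 0.590). TTK, the checkpoint kinase MPS1, had values of -0.26, -0.15, and 0.06. BUB3, the partner of BUB1 and BUB1B, had values of 0.21, 0.20, and 0.42, of which 0 passed.

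The 11 genes of the centromere and kinetochore, the largest group, also held the most members that did not pass. Of the 11, 2 rose in WT and in KK and 3 in R109K, beside 14.8%, 13.8%, and 10.0% of all genes tested. NDC80, which names the microtubule-binding complex, was measured at 225, 170.5, and 173 CPM in pTRE, 316, 276, and 291 in WT, 313, 316, and 292 in KK, and 298, 287, and 284 in R109K. The samples of all 3 E2F1 lines lay above those of pTRE, where replicate 1 was the highest. NDC80 rose by 0.63, 0.69, and 0.61 in WT, KK, and R109K (adjusted p = 0.000861, 0.000428, and 0.00166). The call of NDC80 in R109K was lost without pTRE replicate 2 or 3 or R109K replicate 1 (adjusted p = 0.0149, 0.0119, and 0.0117). With SPC25, described above, 2 of the 4 subunits of that complex rose in all 3 lines. The other subunits, NUF2 and SPC24, had log2 fold changes of 0.12 and 0.23 in WT, 0.27 and 0.24 in KK, and 0.44 and 0.49 in R109K, where their adjusted p were 0.0427 and 0.0329.

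CENPA is the histone H3 variant that marks the centromere. Its levels were 53.9, 48.3, and 49.6 CPM in pTRE, 67.9, 49.5, and 62.5 in WT, 70.7, 71.3, and 54.7 in KK, and 78.3, 88.8, and 71.5 in R109K. WT replicate 2 lay within the pTRE samples, and the R109K samples were the 3 highest. CENPA rose in R109K by 0.65 (standard error 0.14, adjusted p = 0.00254) and stood at 0.25 in WT (adjusted p = 0.168) and 0.37 in KK (adjusted p = 0.0476). Its call in R109K was lost without pTRE replicate 2 or 3 (adjusted p = 0.0166 and 0.0137) and without R109K replicate 1 or 2 (0.0111 and 0.0159). The members CENPH, CENPI, CENPK, and CENPM belong to the inner kinetochore network that sits on CENPA chromatin, and 0 of these 4 passed in any line. CENPH was the lowest of the group in WT, at -0.30 (adjusted p = 0.104), with -0.03 in KK and -0.01 in R109K. CENPI stood at 35.1, 37.9, and 33.02 CPM in pTRE, 43.6, 75.4, and 43.2 in WT, 45.8, 29.5, and 44.4 in KK, and 51.99, 38.0, and 46.8 in R109K, and WT replicate 2 was far above the other samples. The log2 fold change of CENPI was 0.60 in WT (adjusted p = 0.0321), 0.18 in KK, and 0.37 in R109K, and without that replicate it was 0.29 in WT (adjusted p = 0.190). Per kilobase of exon, CENPI was also the lowest of the 50 members in pTRE, at 5.06 CPM per kb, whereas TOP2A at 146 and CCNB1 at 131 CPM per kb were the highest. The large outer kinetochore proteins CENPE, a motor, and CENPF had log2 fold changes between 0.09 and 0.33 in the 3 lines, of which 0 passed.

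Kinesins and spindle proteins held more rises than any other group in each line, although only the centromere and kinetochore group had more genes. Of 9 members, 6 rose in WT, 5 in KK, and 6 in R109K. KIF2C, which depolymerizes microtubules at centromeres, rose by 0.53, 0.57, and 0.64, and KIF4A, a chromokinesin, by 0.54, 0.55, and 0.58 (adjusted p between 0.000422 and 0.00150). KIF23, the motor of centralspindlin, rose by 0.48, 0.67, and 0.53, and TPX2, which activates AURKA and nucleates spindle microtubules, by 0.42, 0.44, and 0.53. PRC1, which bundles microtubules of the spindle midzone, rose by 0.64, 0.65, and 0.68, and 34.3% of its exons overlap PRC1-AS1 on the opposite strand. KIF4A and PTTG1 have near copies, KIF4B, PTTG2, and PTTG3P, which had at most 23 reads in any sample.

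KIF14, a kinesin of the midbody, was the highest of the spindle group in WT. Its levels were 123, 114, and 103 CPM in pTRE, 186, 213, and 158 in WT, 182, 120.3, and 167 in KK, and 175, 133, and 147 in R109K. All 3 WT samples lay above pTRE, while KK replicate 2 fell among the pTRE samples. KIF14 rose in WT by 0.71 (standard error 0.16, adjusted p = 0.00284) and stood at 0.46 in KK (adjusted p = 0.0353) and 0.42 in R109K (adjusted p = 0.0664). The call in WT was lost without pTRE replicate 2 or 3 (adjusted p = 0.0127 and 0.0192), and KIF14 passed in KK without KK replicate 2 (0.00501). KIF20A, which carries the passenger complex to the midzone, was the lowest of the group in WT, with log2 fold changes of -0.12, 0.09, and 0.31 (adjusted p = 0.418, 0.580, and 0.0466). KIF11, the motor that separates spindle poles, rose in R109K by 0.54 (adjusted p = 0.00567), with 0.44 in WT (adjusted p = 0.0130) and 0.30 in KK. KIF18A, which dampens chromosome movement at the metaphase plate, had values of 0.22, 0.14, and 0.28, of which 0 passed.

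In the cytokinesis group, 2 of 3 members rose in each line. ANLN encodes anillin, a scaffold of the contractile ring, and its levels were 385, 373, and 366 CPM in pTRE, 620.0, 525, and 580.5 in WT, 610.1, 439, and 584 in KK, and 813, 648, and 715 in R109K. All R109K samples lay above all WT and KK samples, and all of these lay above pTRE. The log2 fold change of ANLN was 0.62 in WT, 0.54 in KK, and 0.95 in R109K (standard error 0.14 and adjusted p = 0.00238, 0.00615, and 0.000118). The R109K call of ANLN held without each sample, whereas that in WT was lost without pTRE replicate 2 or 3 or WT replicate 1 (adjusted p from 0.0123 to 0.0135) and that in KK without any except KK replicate 2 (0.0187 to 0.0370). RACGAP1, the other subunit of centralspindlin, rose by 0.55, 0.48, and 0.69. ECT2, the exchange factor that activates RhoA at the cleavage furrow, had values of 0.23, 0.11, and 0.37, with adjusted p = 0.0678 or more.

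Of the 7 genes of condensin and chromosome structure, 2 rose in WT and in KK (NCAPG and MKI67, given above) and 4 in R109K. TOP2A, the topoisomerase that decatenates sister chromatids, was measured at 1030, 884, and 873 CPM in pTRE, 1152, 997, and 1225 in WT, 1222, 1263, and 1175 in KK, and 1546, 1424, and 1547 in R109K. The 3 R109K samples were the highest of the 12, and WT replicate 2 overlapped pTRE. TOP2A rose in R109K by 0.70 (standard error 0.12, adjusted p = 0.000398) and stood at 0.28 in WT (adjusted p = 0.0712) and 0.39 in KK (adjusted p = 0.0155). In KK, TOP2A passed with DESeq2 (adjusted p = 0.00109). NCAPD2, another condensin I subunit, rose in R109K by 0.49 (adjusted p = 0.00330) and stood at 0.25 and 0.15 in WT and KK. The call of NCAPD2 was lost without pTRE replicate 1 or 2 and without R109K replicate 1 or 3 (adjusted p from 0.0148 to 0.0210). SMC2 and SMC4, the core ATPases of condensin, had log2 fold changes of 0.04 and 0.29 in WT, 0.20 and 0.45 in KK, and 0.32 and 0.46 in R109K, of which 0 passed. Of the 8164 exon bases of SMC4, 1553 overlap TRIM59 on the opposite strand.

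NCAPH, the kleisin subunit of condensin I, was the exception of this group. Its levels were 189.9, 183, and 188 CPM in pTRE, 173, 152, and 176 in WT, 175, 155, and 163 in KK, and 206, 198, and 190.4 in R109K. All WT and KK samples were below all pTRE samples, and all R109K samples were above all of them. Against pTRE the log2 fold change of NCAPH was -0.16 in WT, -0.19 in KK, and 0.08 in R109K (standard error 0.10, adjusted p = 0.225, 0.176, and 0.603), so that 0 of the 3 passed.

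The anaphase group held ESPL1, PTTG1, and UBE2C, of which 1 rose in WT and in KK and 2 in R109K. PTTG1 encodes securin, the inhibitor of separase, and its levels were 112, 102, and 98.8 CPM in pTRE, 142, 91.5, and 145 in WT, 146, 190.2, and 137 in KK, and 162, 202, and 157 in R109K. WT replicate 2 was the lowest of the 12 samples, and the R109K samples were above all pTRE and WT samples. PTTG1 rose in R109K by 0.73 (standard error 0.17, adjusted p = 0.00542) and stood at 0.27 in WT (adjusted p = 0.223) and 0.59 in KK (adjusted p = 0.0145). Without WT replicate 2, PTTG1 in WT was at 0.45 (adjusted p = 0.0240). In KK, PTTG1 passed with DESeq2 (adjusted p = 0.00401). The R109K call of PTTG1 was lost without any 1 of the 6 samples except R109K replicate 3 (adjusted p from 0.0145 to 0.0317). UBE2C, the ubiquitin-conjugating enzyme of the anaphase-promoting complex, had values of 0.02, 0.36, and 0.30, of which 0 passed.

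The E2F1 lines were then compared directly, to ask whether the arginine changes altered the level of these genes. Between R109K and WT, 0 of 50 members passed the edgeR test, where 0.150% of all genes tested were higher and 0.559% lower in R109K. At an unadjusted p below 0.05, 14 members were higher and 0 lower in R109K, beside 1573 higher and 2141 lower of the 16625 genes tested. DESeq2 called 2 members higher, KIF20A (log2 fold change 0.42, adjusted p = 0.00305) and TOP2A (0.42, adjusted p = 0.00489). The median difference was 0.16 over the members, and 43 of 50 were positive. Every R109K sample was above every WT sample for 18 members, against 13.1% of genes tested. Without WT replicate 2 the median was 0.10 and again 0 members passed.

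The largest differences between R109K and WT were those of MAD2L1 (0.57, 95% confidence interval 0.16 to 0.99, adjusted p = 0.113), PTTG1 (0.46, 0.09 to 0.83, adjusted p = 0.149), and AURKB (0.45, 0.19 to 0.72, adjusted p = 0.0585). For each of these genes the 3 R109K samples were above the 3 WT samples, as given above. Without WT replicate 2, which was the lowest of the 12 samples for MAD2L1 and PTTG1, the differences were 0.33, 0.27, and 0.41 (adjusted p = 0.286, 0.443, and 0.164), so that AURKB was then the largest of these 3. The smallest adjusted p was that of KIF20A (0.43, interval 0.19 to 0.66, adjusted p = 0.0471), which was measured at 148, 159, and 156 CPM in pTRE, 147, 123, and 157 in WT, 172, 164, and 156 in KK, and 188, 189.8, and 196 in R109K. Its R109K samples were above the samples of every other line, and without WT replicate 2 the difference was 0.33 (adjusted p = 0.127). MKI67 and KIF14, which rose in WT, had negative values of -0.11 (interval -0.44 to 0.23) and -0.29 (interval -0.63 to 0.05), and -0.06 and -0.19 without WT replicate 2. E2F1 itself was lower in R109K than in WT by a log2 value of -0.65 (adjusted p = 0.0577), and its part in the members' values was not tested.

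Between R109K and KK, 0 members passed in the fit without pairing, where 0.0541% of all genes tested were higher and 0.0782% lower. At an unadjusted p below 0.05, 7 members were higher and 0 lower in R109K, beside 833 higher and 1229 lower of the 16625 genes tested. DESeq2 called 0 members. The median difference was 0.15, and the 3 R109K samples were above the 3 KK samples for 14 members, against 9.56% of genes tested. The largest differences were those of MAD2L1 (0.42, interval 0.00 to 0.83, adjusted p = 0.397), ANLN (0.41, interval 0.12 to 0.71, adjusted p = 0.179), and NCAPD2 (0.34, interval 0.11 to 0.57, adjusted p = 0.157). NCAPD2 stood at 680.4, 735, and 756 CPM in pTRE, 824, 879, and 878 in WT, 848, 753, and 802 in KK, and 1045, 938, and 1057 in R109K, with R109K the highest line.

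Samples of R109K and KK with the same replicate number deviated together. After removal of line means, same-numbered samples of these 2 lines correlated across genes at 0.29 to 0.47, whereas their 6 pairs of different number lay between -0.34 and 0.04. Over all lines, 9 of 36 pairs of different number correlated above 0.1. The highest of them was 0.31, for WT replicate 2 with KK replicate 3, so such values also arose without a shared number. With the number as a block in a fit of these 6 samples, an alternative chosen after seeing the data, 12 members rose in R109K against KK and 0 fell (edgeR, adjusted p below 0.01). Of the 16069 genes tested in that fit, 4.82% rose and 6.71% fell. The 12 were MAD2L1, ANLN, NCAPD2, PLK1, TOP2A, BIRC5, NCAPH, AURKB, ECT2, CENPA, KIF11, and CENPK. Their paired log2 differences were between 0.24 and 0.42, led by ANLN (0.42, 95% confidence interval 0.29 to 0.55, adjusted p = 0.000101) and MAD2L1 (0.41, interval 0.28 to 0.54, adjusted p = 9.97e-05). Pair by pair, MAD2L1 differed by 0.40, 0.49, and 0.35 and ANLN by 0.41, 0.56, and 0.29. AURKB, whose R109K and KK samples overlap when the pairs are ignored, differed by 0.28, 0.28, and 0.29. In all, 32 of 50 members were higher in R109K in each of the 3 pairs, against 26.5% of genes tested, and NDC80 and KIF23 were lower in each. The count of 12 depended on single pairs. Without pair 1 it was 2 (MAD2L1 and ANLN), and without pair 3 it was 6. Without pair 2, 24 members rose and 2, AURKA and KIF23, fell. Over all genes of these fits, 911, 1309, and 3496 were called in either direction without pairs 1, 3, and 2. With all 3 pairs, 775 genes rose and 1078 fell, so the calls over all genes moved as well. What samples of the same number share is not given in the sources used here.

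Between KK and WT, 0 members passed, where 0% of all genes tested were higher and 0.0120% lower in KK. At an unadjusted p below 0.05, 1 member was higher and 1 lower, beside 625 higher and 790 lower of the 16625 genes tested. DESeq2 called 0 members. The median difference was 0.04, with 32 members positive and 18 negative. The largest differences were those of CENPI (-0.43, interval -0.87 to 0.02), UBE2C (0.34, interval 0.00 to 0.68), and PTTG1 (0.32, interval -0.05 to 0.69), with adjusted p = 0.574, 0.574, and 0.577. Without WT replicate 2 the values were -0.12, 0.21, and 0.14, and without KK replicate 2 they were -0.25, 0.18, and 0.17. Without both, an alternative chosen after seeing the data, they were 0.05, 0.04, and -0.02. An adjusted p above the threshold does not show that the lines had equal levels.

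Further genes of mitosis and genes of DNA replication were set beside the members. Over all genes tested, 14.8% rose and 11.4% fell in WT, 13.8% and 10.7% in KK, and 10.0% and 7.23% in R109K. Of 75 other mitotic genes, 27 rose in WT, 32 in KK, and 35 in R109K, and 0 fell in any line, with median log2 fold changes of 0.37, 0.39, and 0.48. The largest rises among them in WT were those of CENPP (1.44, adjusted p = 1.45e-05), a kinetochore gene, NUSAP1 (1.17, adjusted p = 1.02e-06), which binds spindle microtubules, and NCAPG2 (1.013, adjusted p = 1.87e-05), a condensin II subunit. Of 51 replication genes, 6 rose and 7 fell in WT, 7 rose and 8 fell in KK, and 8 rose and 4 fell in R109K. Their medians were -0.08, 0.07, and 0.13. Within that list, RRM2, encoding a subunit of ribonucleotide reductase, CCNE2, and CCNE1, encoding the E cyclins, rose in WT by 2.37, 2.24, and 1.59, whereas TK1, the thymidine kinase, and MCM5 and MCM6, subunits of the replicative helicase, fell by 0.94, 0.91, and 0.88.

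**Figure D5:**
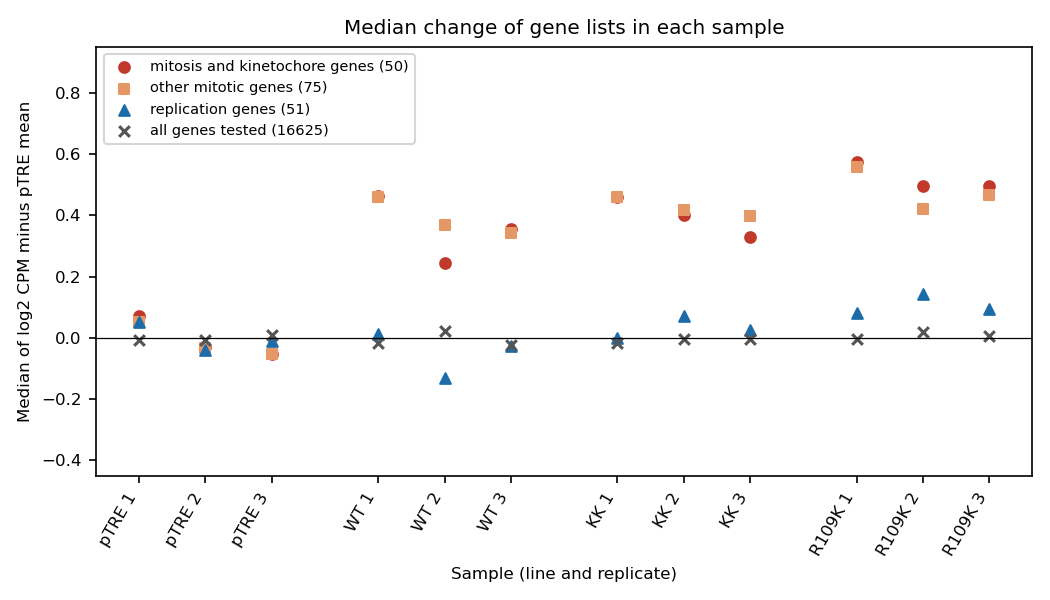
Points give, for each of the 12 samples, the median log2 CPM minus the pTRE mean over the 50 mitosis and kinetochore genes, 75 other mitotic genes, 51 replication genes, and all 16625 genes tested. In the WT, KK, and R109K samples the members' median lies between 0.24 and 0.57, the other mitotic genes lie close to it, and replication genes lie between -0.13 and 0.14.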

How the data were processed

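RNA was prepared from 3 samples, labelled biological replicates, of each of 4 U2OS lines. Per the labels and methods, directional poly(A) libraries were sequenced, and reads were trimmed (Trim Galore 0.4.3) and aligned to hg19 (STAR 2.5.1). The submitters' notes also name DESeq2 1.16.1. The authors deposited whole-number counts of reads per gene symbol, without normalization. The 5 summary lines, with 68.8% of reads in WT replicate 2 and 34.3% to 41.0% in the other samples, were left out. The annotation and strand setting of counting are not given in the sources used here.

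Low counts were removed with filterByExpr of edgeR 4.0.16 (R 4.3.3). A single quasi-likelihood fit covered all 12 samples, with TMM scaling and 1 mean for each line, and p was adjusted over 16625 genes (Benjamini-Hochberg). Rose and fell mean an adjusted p below 0.01. The study's rule for a regulated transcript adds a change over 2-fold. For log2 values of samples, the prior count was 2. Samples of a line differed beyond counting noise (chi-square per degree of freedom 9.10 or more). By that measure, WT replicate 2 lay at 57.1 and 57.6 from WT replicates 1 and 3, which lay at 14.2 from each other. KK replicate 2 lay at 51.6 and 36.9 from KK replicates 1 and 3, which lay at 9.10 from each other. R109K replicate 2 lay at 31.8 and 22.3 from R109K replicates 1 and 3, which lay at 10.5 from each other.

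The members, role groups, and lists were chosen with earlier results of these data known. The 30 members for which alternatives were computed gene by gene were chosen by rule. They are the 5 largest rises in each comparison with pTRE, 8 fixed genes (CDK1, CCNB1, PLK1, AURKB, BUB1, CENPA, TOP2A, and MKI67), the highest and lowest of each role group in WT, and the 3 largest differences between E2F1 lines. Values by sample are printed for a part of these 30. Alternatives were DESeq2 1.42.0, RLE normalization, no filter, at least 10 counts in every sample, only the 6 samples compared, the replicate number as a block, an adjusted p of 0.05, glmTreat against 2-fold, and each replicate left out. Same-numbered samples of R109K and KK deviated together (correlations of deviations from line means 0.29 to 0.47, all 3 above 0.1), as those of no other pair of lines did, so the number was also used as a block in a fit of those 6 samples. Scripts were tested on simulated data. RefSeq promoters (GRCh38.p14) were placed in GRCh37 by exact match with Python 3.11.15.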

Additional observations from a re-analysis of the deposited data

Results flagged for a closer look

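NCAPH was singled out because its changes against pTRE had opposite directions between lines. Every WT and every KK sample lay below the pTRE mean, and every R109K sample lay above it. The difference between lines was tested directly, and its log2 value was 0.2466 for R109K against WT (adjusted p = 0.184, edgeR) and 0.2722 for R109K against KK (adjusted p = 0.263), so that neither passed without pairing. With R109K and KK samples paired by number, an alternative chosen after seeing the data, the difference was 0.27 and passed (edgeR, adjusted p = 0.00286). The paired difference of NCAPH did not pass without pair 1. WT replicate 2 was singled out because 58.73% of its reads lay outside annotated genes, a class of reads that no comparison used. The highest pTRE sample had 28.3%.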

How the results depend on the processing

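The ranges that follow are over fits with each replicate of a comparison left out in turn. The number of members that rose was 8 to 21 in WT, 9 to 18 in KK, and 12 to 22 in R109K. The number past 2-fold was 0 to 1 in WT, 0 to 1 in KK, and 0 to 3 in R109K. Both counts are given without a share of all genes tested. The median log2 fold change was 0.25 to 0.39, 0.37 to 0.46, and 0.46 to 0.55 in WT, KK, and R109K. Between E2F1 lines the median was -0.0093 to 0.10 for KK against WT, 0.10 to 0.22 for R109K against WT, and 0.10 to 0.19 for R109K against KK. In the other alternatives, the lowest median was 0.36 for KK against pTRE and -0.014 for KK against WT. No member fell against pTRE in any alternative. In WT, 1 member passed 2-fold with DESeq2, RLE normalization, at least 10 counts in every sample, or only the 6 samples compared. In R109K, 0 passed with glmTreat. With an adjusted p of 0.05, 28 members rose in KK and 1 was higher in R109K than in WT, where DESeq2 called 2. the cause was not tested.

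Among the 30 members for which alternatives were computed, some changed sign when samples were left out. In WT these were UBE2C (-0.079 to 0.15), PLK4 (-0.14 to 0.16), and AURKB (-0.026 to 0.079), in KK PLK4 (-0.16 to 0.10), CENPH (-0.13 to 0.15), and ECT2 (-0.019 to 0.24), and in R109K CENPH (-0.11 to 0.17). For KK against WT, CENPI (-0.55 to 0.052) and PTTG1 (-0.022 to 0.44) did so without WT replicate 2 and KK replicate 2 together and kept their sign without any single sample. The ranges of single members include that alternative, which was chosen after seeing the data. Then 26, 24, and 35 members rose in WT, KK, and R109K.

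All 3 same-numbered pairs of R109K and KK samples correlated above 0.1, which held for no other pair of lines. Between WT and pTRE 2 of 3 same-numbered pairs correlated above 0.1, and in the other 4 comparisons 0 did. When the number entered the model as a block, 20, 18, and 25 members rose in WT, KK, and R109K, and 0 differed between E2F1 lines in the fit of all 12 samples. With the block in a fit of the 6 R109K and KK samples, 12 members were higher in R109K. Against pTRE, with the block in the fit of all 12 samples, CDK1 passed in KK (adjusted p = 0.00885), while INCENP in KK (0.0119) and AURKB and PTTG1 in R109K (0.0138 and 0.0133) did not.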
